A study of Homo sapiens with 6 samples.

Results

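The matrix metalloproteinases (MMPs) and their tissue inhibitors (TIMPs) were followed in A-498 cells, an established human renal cell carcinoma line, with and without zebularine. The members were all probe sets annotated to exactly 1 of MMP1, MMP2, MMP3, MMP7, MMP9, MMP10, MMP14, TIMP1, TIMP2 and TIMP3, which gave 10 genes of 11963 and 16 probe sets of 22277 on the array. The list was set by gene name. The treated cultures received 1000 µM zebularine, a cytidine analogue that inhibits DNA methyltransferases, for 120 h, and the untreated cultures were grown for 120 h in the same medium without it. Each of 3 experiments gave 1 zebularine array and 1 untreated array, so there were 3 arrays per group. Values are linear signals in MAS5 units, and probe sets were tested where 3 or more arrays had a signal of 78.6 or higher, a level that 40 percent of the values fall below. The replicates are called biological in the sample titles, but all come from 1 cell line, and the p-values measure only the spread between these cultures.

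MMPs are zinc-dependent proteases that cut collagens, laminin, fibronectin and many cell surface proteins. They are made as inactive precursors and become active when a prodomain is removed, and TIMPs then block the active enzymes by binding the catalytic zinc site. In the kidney MMP7 is low in healthy tubule and induced by injury, and in carcinoma cells several MMPs and TIMPs are linked to invasion.

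The cultures carried the markers of their label: PAX8, PAX2, KRT8, KRT18 and CDH6, 5 of 6 renal carcinoma markers, were bright enough to test, and the other one was not analysed here. Their summed signal was 17089 to 23107 on zebularine arrays and 23391 to 31461 on untreated arrays, lower on each zebularine array. All 5 had a negative log2 difference, and 1 of them, CDH6, was called lower (limma, adjusted p = 0.0206). Mean signals on zebularine and untreated arrays were 14950.0 and 18805.6 for KRT18, 4689.6 and 5994.0 for KRT8, and 162.1 and 1400.3 for CDH6. Of 7 fibroblast markers 2 were bright enough to test, and the summed signal of the list was 561.4 to 924.7 on zebularine and 406.0 to 524.3 on untreated arrays. Within that list COL1A1 had 580, 246.6 and 367.8 on zebularine against 276.8, 183.3 and 130.3 on untreated arrays, while COL1A2, too dim to test, ran the other way with 6.7, 40.1 and 34.2 on zebularine against 47.7, 98.7 and 69.8 on untreated arrays. None of 4 macrophage markers and none of 3 endothelial markers was bright enough to test. Their summed signals were 61.8 to 91.5 on zebularine and 81.5 to 108.7 on untreated arrays for macrophages, and 147.4 to 191.2 on zebularine and 91.1 to 141.2 on untreated arrays for endothelium. The part of these shifts in the results below was not tested. Array medians ran from 126.5 to 134.4 on zebularine and from 117.9 to 140.8 on untreated arrays, and both arrays of experiment 3 had lower maxima, 28720.5 on zebularine and 31176.4 on untreated, than the other 4, at 66289.9 to 71174.1.

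MMP7 was the member that fell. MMP7, or matrilysin, is a small MMP made by epithelial cells, without the hemopexin domain that most MMPs carry, and it cleaves laminin, E-cadherin and the precursors of other MMPs. Its probe set, 204259_at, had signals of 810.1, 965.4 and 799.9 in zebularine cultures of experiments 1, 2 and 3, against 1930.1, 4206.9 and 2343.6 in untreated cultures. The highest zebularine array was below the lowest untreated array, as was the case for 8.88% of all 13545 tested probe sets. The zebularine arrays lay close together at 858.5 ± 92.7, while the untreated arrays spread more widely at 2826.9 ± 1212.9 (SD, n = 3 each).

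Within experiments, the zebularine signal of MMP7 was 0.42, 0.229 and 0.341 times the untreated signal. On the log2 scale, with 16.3 added to each signal, MMP7 fell by 1.62 ± 0.30 (standard error; limma, Benjamini-Hochberg adjusted p = 0.0337), with a 95% interval from -2.27 to -0.98. It was the 1 probe set called among the 7 tested ones of these genes, at an adjusted p under 0.05, while 0.620% of all tested probe sets were called and 0.295% were called lower. Of all tested probe sets, 73 had a more negative difference. In cultures measured as a whole, fewer cells with a transcript and less of it per cell cannot be told apart. With the experiment as a block the fall had an adjusted p of 0.00355 in limma. The call did not hold in limma without zebularine 1, zebularine 2, zebularine 3 or untreated 3 (adjusted p = 0.0555, 0.158, 0.0942 and 0.0984), and without the mean-variance trend (adjusted p = 0.149). The size of the difference stayed between -1.86 and -1.30 when any 1 array was left out, and with the block MMP7 was called without each experiment in turn.

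The promoter of MMP7 is shown because this is the member whose transcript fell. The window holds the 250 bases before the gene's start in RefSeq's table, on GRCh38.p14 at chr11:102530748-102530997, minus strand. The capitals mark exact matches to TGAGTCA, letters that AP-1 (dimers of FOS and JUN proteins) binds, and to CTTTGAA, letters bound by TCF factors of the Wnt pathway, each searched on both strands.
MMP7: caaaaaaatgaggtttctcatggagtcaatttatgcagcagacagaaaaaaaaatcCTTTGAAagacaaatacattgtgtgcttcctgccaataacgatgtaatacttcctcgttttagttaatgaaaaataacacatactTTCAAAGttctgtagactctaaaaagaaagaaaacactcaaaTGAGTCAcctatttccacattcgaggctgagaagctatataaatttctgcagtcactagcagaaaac
The AP-1 letters stand 67 to 61 bases before the start, and the TCF letters stand 194 to 188 bases before it and, on the opposite strand, 109 to 103 bases before it. No match overlapped another. Of 35116 promoter windows of the same length in the table, 4.2% hold the AP-1 letters and 3.8% the TCF letters. Letters of other factors were not searched for. MMP10 and MMP14, TIMP1 and TIMP3, the other members with an entry in the table, held neither exact match in this window. Near matches were not searched for, and the TIMP1 window holds TGAGTAA, which differs from the AP-1 letters by an A in place of the C. A match of letters is a description and does not show that a factor was bound. CG pairs, the bases that DNA methyltransferases methylate, numbered 3 in this window of MMP7, against a median of 11 over all windows.

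**Figure D1:**
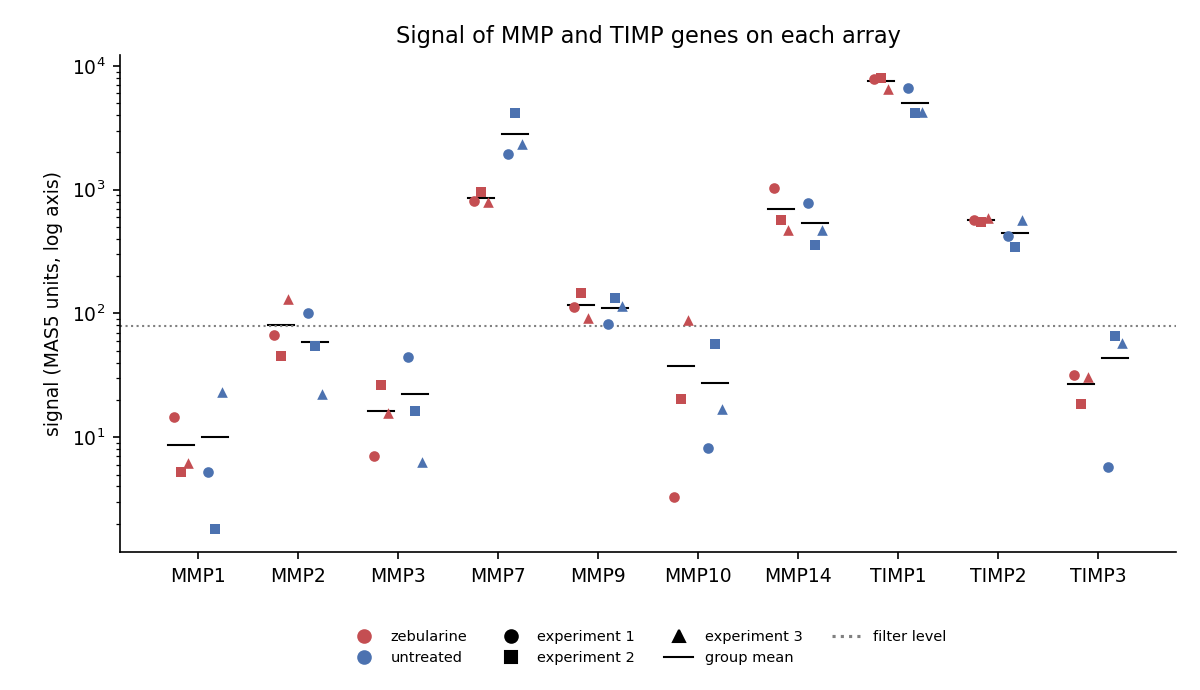
Signal of the 10 genes on each array, on a log axis in MAS5 units, zebularine left of untreated, with marker shapes for experiments and a bar for each group mean; the probe set with the highest mean signal is shown where a gene has 4. The 3 zebularine values of MMP7 lie below all 3 untreated values, while MMP1, MMP3 and TIMP3 stay below the dotted filter level of 78.6; levels of different probe sets cannot be set against each other.

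MMP9 and MMP2 are the gelatinases, which digest denatured collagen and the collagen IV of basement membranes. MMP9 had 113.2, 145.1 and 91.8 signal units in zebularine cultures, against 82.6, 134.5 and 115.6 in untreated cultures, so the groups overlapped. The difference was 0.07 ± 0.41 on the log2 scale (limma, adjusted p = 0.969), and its 95% interval, -0.82 to 0.96, still holds changes close to 2-fold in either direction. MMP2 had 66.5, 45.1 and 130.8 units in zebularine cultures, against 100.8, 54.6 and 22.5 in untreated cultures. It was lower with zebularine in experiments 1 and 2 and higher in experiment 3, where the 2 arrays hold its highest and lowest value. MMP2 reached the level of 78.6 on 2 of 6 arrays and was not tested.

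The collagenase and the stromelysins were dim on nearly all arrays. MMP1, the interstitial collagenase that cuts fibrillar collagen, had signals of 5.2 to 14.6 in zebularine and 1.8 to 23 in untreated cultures. MMP3, stromelysin 1, which degrades many matrix proteins and activates other MMPs, had 7.1 to 26.4 in zebularine and 6.3 to 44.6 in untreated cultures. MMP10, stromelysin 2, had 3.3, 20.5 and 88.2 in zebularine against 8.2, 56.8 and 16.9 in untreated cultures, and the array at 88.2 was the 1 of 6 that reached the level for testing. These genes lie close together with MMP7 on chromosome 11, and MMP7 was the 1 of the 4 bright enough to test. At such signals the data cannot show whether MMP1, MMP3 and MMP10 differed below the testing level, and none of them reached it on every zebularine array.

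MMP14 encodes a membrane-bound MMP that activates the precursor of MMP2 at the cell surface together with TIMP2. It was measured by 4 probe sets, and these did not move alike. Probe set 202828_s_at had 448.9, 213.7 and 248.2 in zebularine cultures, against 263.2, 135.3 and 125.1 in untreated cultures, higher with zebularine in all 3 experiments. Its difference of 0.75 ± 0.38 did not pass (limma, adjusted p = 0.443, or 0.143 with the experiment as a block). Probe set 160020_at had 1033.8, 574.1 and 470.5 in zebularine cultures, against 780, 360.5 and 469.5 in untreated cultures, a difference of 0.35 ± 0.35 (limma, adjusted p = 0.726) that was 0.03 without zebularine 1. In experiment 3 its 2 arrays were nearly equal.

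The third tested MMP14 probe set, 202827_s_at, had 377.2, 177.1 and 125.3 in zebularine cultures, against 498.6, 128.7 and 164.1 in untreated cultures. It was lower with zebularine in experiments 1 and 3, with a difference of -0.11 ± 0.49 (limma, adjusted p = 0.954) that became 0.45 without untreated 1 and 0.21 without zebularine 3. The fourth, 217279_x_at, of a type that can bind related transcripts, reached the level for testing on 2 of 6 arrays. It had 68, 70.5 and 142.4 in zebularine and 262.9, 32.2 and 26.2 in untreated cultures. The experiments differed in the level of MMP14 itself: on untreated arrays experiment 1 was highest in all 4 probe sets, and on zebularine arrays it was highest in the 3 tested ones. Averaged over the tested probe sets, the difference of MMP14 was 0.33 (limma, adjusted p = 0.765).

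**Figure D2:**
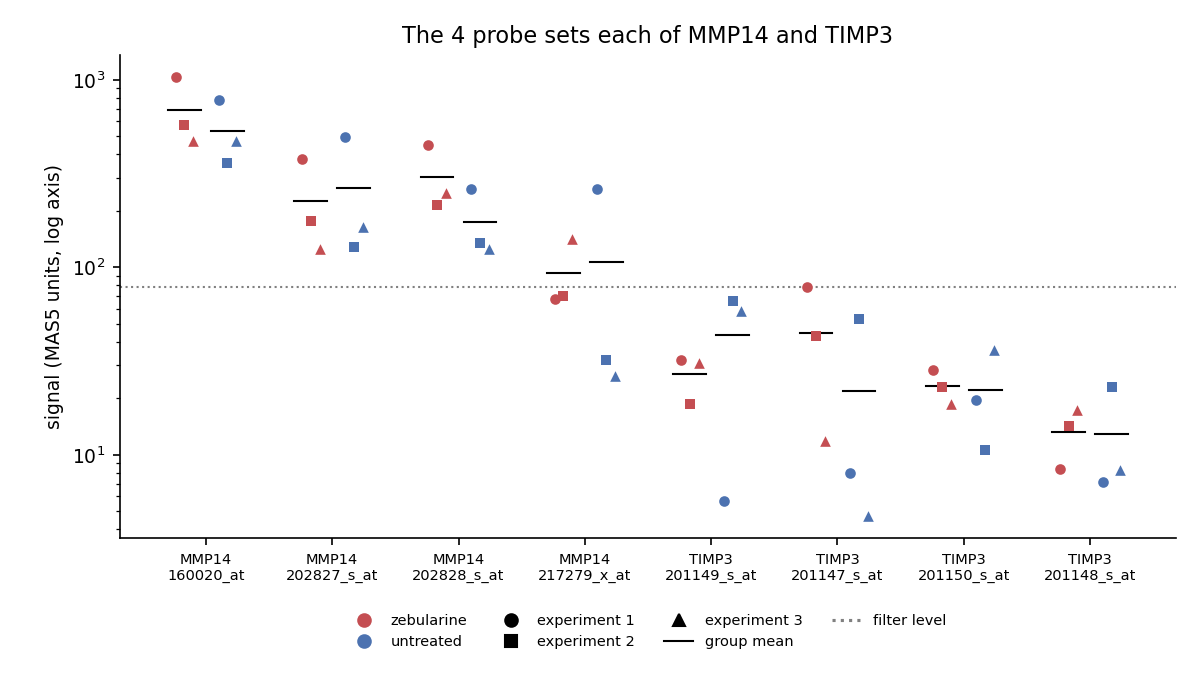
Signal on each array, on a log axis in MAS5 units, for the 4 probe sets of MMP14 and the 4 of TIMP3, zebularine left of untreated, with marker shapes for experiments and a bar for each group mean. Experiment 1 has the highest untreated value in each MMP14 probe set (780, 498.6, 263.2 and 262.9), and every TIMP3 value lies below the dotted filter level of 78.6.

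Of the inhibitors, TIMP1 and TIMP2 were above the testing level on all 6 arrays and were higher with zebularine in each experiment, without passing the test. TIMP1, a secreted inhibitor of most MMPs that also acts as a growth factor, had 7898.9, 8026.4 and 6550.1 in zebularine cultures, against 6664.1, 4167.4 and 4259.3 in untreated cultures. The zebularine signal was 1.19, 1.93 and 1.54 times the untreated one within experiments 1, 2 and 3, and the groups overlapped only through zebularine 3 and untreated 1. TIMP1 averaged 7491.8 ± 818.0 in zebularine cultures and 5030.3 ± 1415.7 in untreated cultures (SD, n = 3 each). The log2 difference was 0.60 ± 0.26 with a 95% interval from 0.05 to 1.16 (limma, adjusted p = 0.364, or 0.0667 with the block).

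TIMP2, which inhibits MMPs and also links the MMP2 precursor to MMP14, had 566.2, 548.8 and 587.4 in zebularine cultures, against 426.4, 342.6 and 572.1 in untreated cultures. Zebularine arrays lay close together while untreated 3 reached the same range as they did. The difference was 0.36 ± 0.27 (limma, adjusted p = 0.618), with a 95% interval from -0.22 to 0.94, and it was 0.19 without untreated 2 and 0.55 without untreated 3.

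TIMP3 encodes the inhibitor that stays bound to the extracellular matrix, and its promoter has been reported methylated in kidney tumours. All 4 of its probe sets stayed below 78.6 on all 6 arrays, with signals of 8.4 to 78.2 in zebularine and 4.7 to 66.3 in untreated cultures. Probe set 201147_s_at had the highest of these, at 78.2, 43 and 11.9 in zebularine against 8, 53.2 and 4.7 in untreated cultures. Probe set 201149_s_at had 32, 18.6 and 30.7 in zebularine against 5.7, 66.3 and 58.2 in untreated cultures. The first was higher with zebularine in experiments 1 and 3 and the second in experiment 1, so neither moved one way throughout. With no filter on dim probe sets, the 4 log2 differences of TIMP3 were 0.72, 0.09, 0.05 and -0.26, with adjusted p of 0.753 or more in limma.

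The promoters of TIMP1 and TIMP3 are shown because they differ in CG pairs, printed in capitals, in an experiment with a DNA methyltransferase inhibitor. Methylation was not measured here. Both windows hold the 250 bases before the start in RefSeq's table, on GRCh38.p14, plus strand, TIMP1 at chrX:47582186-47582435 and TIMP3 at chr22:32801455-32801704.
TIMP1: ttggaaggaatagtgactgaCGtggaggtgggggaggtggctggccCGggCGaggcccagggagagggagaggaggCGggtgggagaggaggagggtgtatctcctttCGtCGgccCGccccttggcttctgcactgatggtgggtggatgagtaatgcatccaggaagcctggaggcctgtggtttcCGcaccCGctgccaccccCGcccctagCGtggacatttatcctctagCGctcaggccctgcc
TIMP3: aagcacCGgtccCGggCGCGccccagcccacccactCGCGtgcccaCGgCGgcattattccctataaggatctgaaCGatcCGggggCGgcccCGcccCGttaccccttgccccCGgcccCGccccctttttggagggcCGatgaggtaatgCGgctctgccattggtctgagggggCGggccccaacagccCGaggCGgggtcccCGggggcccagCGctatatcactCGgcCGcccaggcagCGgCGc
TIMP3 has 26 CG pairs in this window, and 19.6% of all windows have at least as many. TIMP1 has 12, close to the median of 11. Among the other members in the table, MMP14 has 7 and MMP10 has 2. The table held 5 of the 10 members.

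Over all members, 7 probe sets of 5 genes were tested, and 6 of them were not called by limma. With the experiment as a block 4.22% of all tested probe sets were called, 572 against 84 without it, and among the members MMP7 was again the 1 called. The median log2 difference was 0.35 over the 7 probe sets and -0.01 over all 13545. Of the 7, 4 were higher with zebularine in all 3 experiments, where 20.9% of all tested probe sets were, but 2 of the 4 measure MMP14. MMP7 was lower in all 3, as were 21.8% of all tested probe sets. For none of the 7 did all zebularine arrays lie above all untreated ones, as they did for 8.71% of all tested probe sets.

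The other 9 probe sets gave 54 values between 1.8 and 262.9, of which 5 reached 78.6. None of the 9 moved in the same direction in all 3 experiments. Without the filter their log2 differences were at most 0.72 in size, and none had an unadjusted p under 0.248 in limma.

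**Figure D3:**
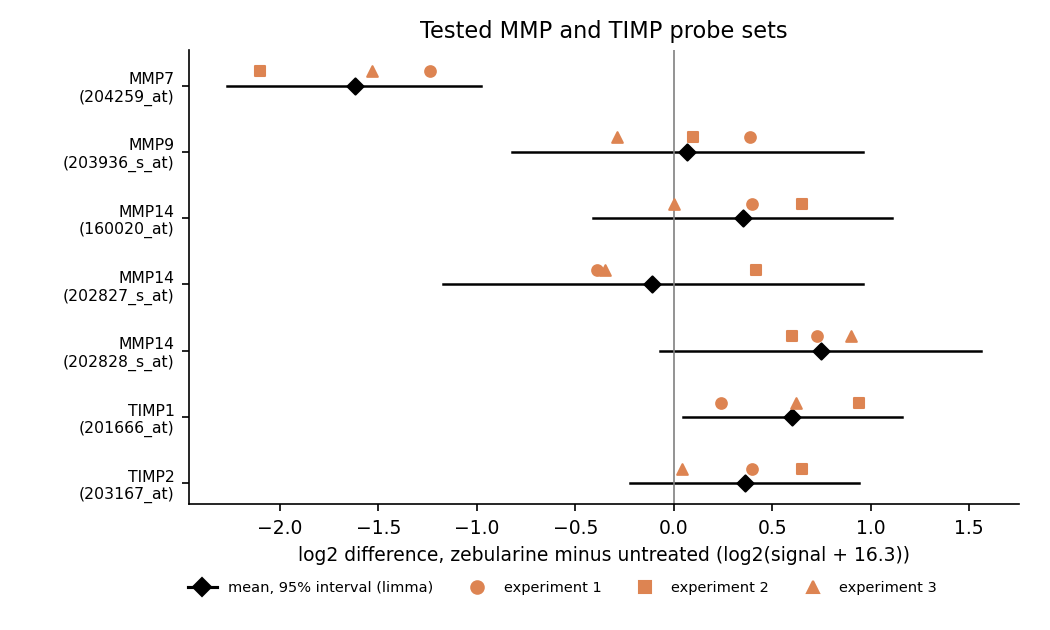
Log2 difference between zebularine and untreated cultures for the 7 tested probe sets, as the mean with its 95% interval from limma (black) and the difference within each experiment (orange shapes). MMP7 lies at -1.62 with its 3 experiments at -1.24, -2.10 and -1.53, while TIMP1 lies at 0.60 and the probe sets of MMP14 lie between -0.11 and 0.75.

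Genes that act with these proteases were read from a list of 65, of which 61 had a probe set of their own and 37 were bright enough to test. Of the 37, limma called 1, PLAT, without the block and 5 with it, 3 higher and 2 lower, beside the 0.620% and 4.22% called over all tested probe sets. All 5 belong to the 14 tested activators, inhibitors and partners. PLAT, the tissue plasminogen activator, rose: its signals were 266.1, 858.5 and 1958.5 in zebularine cultures, against 33.4, 9.8 and 61 in untreated cultures. It reached the testing level only on the 3 zebularine arrays, so the size of its log2 difference depends on the pseudocount, at 4.08 with the one used and 3.12 and 4.57 with a larger and a smaller one. It was called with that filter and without any (limma, adjusted p = 0.0206 and 0.0263), but not without zebularine 2 (adjusted p = 0.154) or zebularine 3 (adjusted p = 0.0647).

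With the experiment as a block PLAUR, the receptor that holds urokinase at the cell surface, rose by 1.26 (limma, adjusted p = 0.0141, against 0.0573 without the block). CTSL, the lysosomal protease cathepsin L, rose by 0.78 (limma, adjusted p = 0.0211 with the block and 0.209 without). Its 3 zebularine arrays, 6544.9 to 7679.2, all lay above the untreated ones, 3403.7 to 5218, as was the case for 8.71% of all tested probe sets. The CTSL call ended without experiment 1 (0.65, limma, adjusted p = 0.125 with the block). PCSK5, a proprotein convertase, fell by 1.25 (limma, adjusted p = 0.0116 with the block and 0.0904 without). LRP1, the endocytic receptor that clears MMPs and their inhibitor complexes, fell by 1.28 (limma, adjusted p = 0.0156 with the block and 0.282 without). It had 382.3, 96.7 and 231 in zebularine cultures, against 972.1, 312.1 and 471.7 in untreated cultures, where experiment 1 was highest in both groups. Its call also ended without experiment 1 (limma, adjusted p = 0.113 with the block), and its difference was -0.79 without zebularine 2 and -0.84 without untreated 1. The other 9 of the 14 did not pass. Counting the called ones, 6 of the 14 had an unadjusted p under 0.05 in limma, or 9 with the block. Over all 13545 tested probe sets, 1702 had such a p, or 2808 with the block.

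Of the other MMPs and TIMP4, 3 of 16 genes were bright enough to test and none was called by limma, with 1 at an unadjusted p under 0.05. Such a p was reached in limma by 1702 of all 13545 tested probe sets. MMP19 and MMP25 differed by 0.15 ± 0.66 and 0.95 ± 0.61, and MMP19 changed sign with a larger pseudocount, at -0.01. Leaving out 1 array moved MMP19 between -0.64 (without untreated 2) and 0.76 (without untreated 1), and MMP25 between 0.39 (without untreated 3) and 1.28 (without untreated 2). MMP24, a membrane-bound MMP known from the nervous system, was picked out after its values were seen. It had 17.9, 15.7 and 23.8 in zebularine cultures, against 158.5, 110.3 and 135.5 in untreated cultures. MMP24 reached the testing level only on the 3 untreated arrays. A probe set tested through 1 group alone cannot overlap, so the separation of the groups follows from the filter and adds no support. Of all tested probe sets, 8.88% were lower without overlap. The log2 difference of MMP24 depends on the pseudocount, at -1.24, -2.08 and -2.58 with the larger, the used and the smaller one. It was not called, with or without the block.

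None of 9 tested ADAM and ADAMTS genes, related metalloproteases that shed surface proteins or cut matrix proteoglycans, was called by limma, with 1 at an unadjusted p under 0.05. Their brightest members, ADAM9 and ADAM10, differed by -0.04 ± 0.26 and 0.03 ± 0.26, and ADAM9 was at 0.02 after quantile normalization. The 1 at an unadjusted p under 0.05 was ADAMTS1, named after its values were seen. It differed by 0.84 ± 0.31 (limma, adjusted p = 0.282, or 0.0719 with the block). Of the 9, 4 differences were positive and 5 negative. The 11 tested transcription factors that bind MMP promoters also had 0 calls in limma over all arrays, with 1 at an unadjusted p under 0.05. Of all 13545 tested probe sets, 1702 had an unadjusted p under 0.05 in limma. Of the 11, 5 differences were positive and 6 negative. JUN, a subunit of AP-1, differed by 0.15 ± 0.36 and JUND by -0.49 ± 0.32 (limma, adjusted p = 0.901 and 0.566). Without 1 array, JUN ran from -0.26 (without untreated 2) to 0.50 (without untreated 3). JUND ran from -0.86 without untreated 2 to -0.23 without untreated 1, and with the block it was called lower without experiment 2 (-0.82, limma, adjusted p = 0.0373). FOS and ETS2 were picked out after their values were seen. FOS, also a subunit of AP-1, was lower with zebularine in all 3 experiments, as were 21.8% of all tested probe sets. FOS had 79, 612.7 and 15.8 in zebularine cultures, against 109.8, 1670.6 and 138.8 in untreated cultures. Its difference was -1.37 ± 1.02 (limma, adjusted p = 0.619, or 0.0574 with the block). Zebularine 3 lies below the pseudocount of 16.3, so the size of this difference depends on that choice. ETS2 differed by 0.90 ± 0.28 (limma, adjusted p = 0.209, or 0.0764 with the block). All its zebularine arrays lay above all untreated ones, as for 8.71% of all tested probe sets.

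**Figure D4:**
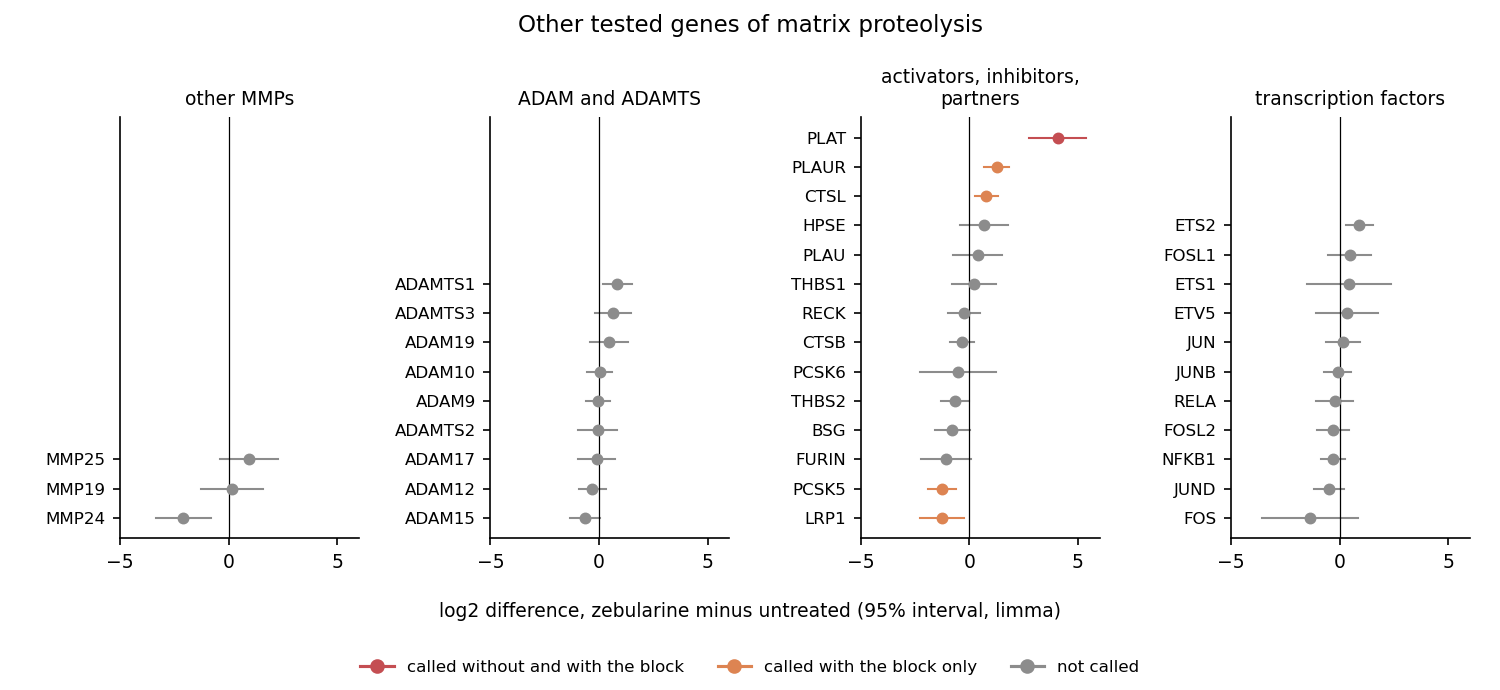
Log2 difference between zebularine and untreated cultures, with 95% intervals from limma without the block, for the 37 other tested genes in 4 groups. PLAT lies farthest to the right, at a value that depends on the pseudocount since its untreated signals lie below the testing level. The 5 coloured genes stand in the group of activators, inhibitors and partners, and MMP24, whose zebularine signals lie below that level, is the lowest of the other MMPs.

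As a description, the genes whose log2 signals ran most like those of MMP7 over the 6 arrays were MID1, DNPH1 and ATP5F1C, with Pearson's r of 0.984, 0.978 and 0.974. For TIMP1 they were TBX19, BTN2A2 and CD44, with r of 0.994, 0.992 and 0.985. The search ran over 7933 genes, of which 10 reached an r above 0.95 with MMP7 and 20 with TIMP1, and the arrays share treatment and experiment, so such values have no test. CD44, the hyaluronan receptor, differed by 0.72 (limma, adjusted p = 0.3, or 0.0193 with the block). With the block, limma gave MID1, DNPH1 and ATP5F1C adjusted p of 0.0303, 0.0236 and 0.0317. TBX19 and BTN2A2 had 0.386 and 0.199 in that fit. None of these genes was called without the block. All were picked over the same arrays, so their p-values are not independent of the pick.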

How the data were processed

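Total RNA of 3 zebularine and 3 untreated A-498 cultures was labelled with biotin and hybridised to Affymetrix arrays. Each deposited value is a linear intensity of 1 probe set, made by the authors with MAS5 per the submitters' processing notes; its version, its settings and any detection calls are not stated there.

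Values were taken as log2(signal + 16.3), the pseudocount being the median divided by 8, which understates changes of dim genes. The array has 22277 probe sets with 62 controls, which were dropped, and 13545 others reached 78.6, the 40th percentile, on at least 3 of 6 arrays and were tested with limma 3.58.1 in R 4.3.3 (lmFit, eBayes with trend, two-sided, Benjamini-Hochberg over all 13545). Of 19070 probe sets with 1 symbol, 19058 matched RefSeq by Entrez number; each listed gene used its brightest tested probe set. The sample titles give both arrays of a pair the same replicate number, called the experiment here. Deviations from the group means had r of 0.323, 0.21 and 0.272 between same-numbered arrays of experiments 1, 2 and 3. Between differently numbered arrays r ran from -0.187 to -0.0606. Deviations from a group mean are tied to each other, so these values alone cannot settle the pairing. The numbers were taken to pair the arrays, and values with the experiment as a block stand beside results that they change. No 2 arrays shared more than 0.198% of their values.

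The 10 members and all lists were chosen with earlier results of these data known. Named are all members, called genes of the 4 lists or, with none, the 2 brightest, and the 3 genes most like the brightest MMP and TIMP. MMP24, FOS, ETS2 and ADAMTS1 were added after their values were seen. Of these, FOS, ETS2 and ADAMTS1 were not read in the alternatives below, apart from the block. The fit without the block was run on simulated data with independent noise on each array. That run does not cover the block or deviations shared within an experiment. Alternatives were other pseudocounts and filters, quantile normalization, no trend, the block, and leaving out arrays. The number of arrays, the spread between cultures and the signal over background limit the precision. Figures used matplotlib 3.10.9 in Python 3.11.15.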

Additional observations from a re-analysis of the deposited data

How the results depend on the processing

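The member count was 1 (MMP7) of 7 tested probe sets, of 16 without the filter and of 5 with the stricter filter. The count also stayed at 1 with the replicate block, both other pseudocounts and quantile normalization. It was 0 without the mean-variance trend (1 at an unadjusted p under 0.05 in limma) and 0 to 1 when 1 array was left out, where MMP7 kept its direction in all 6 fits. Over all tested probe sets 84 were called, against 572 with the block, 55 with the smaller pseudocount, 42 without the filter and 6 without the trend. Without the trend, 1532 of 13545 had an unadjusted p under 0.05 in limma. Leaving out 1 array gave 0 to 96 calls (1315 at an unadjusted p under 0.05 where 0 were called, without zebularine 2), and leaving out 1 experiment with the block gave 194, 1023 and 335 without experiment 1, 2 and 3. Of the other genes of matrix proteolysis 1 was called, against 5 with the block, 2 with the stricter filter, 0 without the trend (8 at an unadjusted p under 0.05), 0 to 2 without 1 array and 4 to 7 without 1 experiment with the block. PLAT was not called without the trend (adjusted p = 0.101), and PLAUR was called with the stricter filter (adjusted p = 0.0498).

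Values near 0 changed sign without passing the test in any fit. Without 1 array, MMP9 ranged from -0.10 to 0.21, MMP14 at 202827_s_at from -0.52 to 0.45, MMP19 from -0.64 to 0.76, ADAM9 from -0.27 to 0.12, ADAM10 from -0.15 to 0.16 and JUN from -0.26 to 0.50. Without 1 experiment, with the block, MMP9 reached -0.09, 202827_s_at 0.03 and 0.01, MMP19 -0.57, ADAM9 0.16, ADAM10 -0.11 and -0.09, and JUN -0.03 and -0.17. ADAM9 was at 0.02 after quantile normalization and MMP19 at -0.01 with the larger pseudocount. The cause of these changes was not tested. The block changed no call of a member. Signals near background, as for TIMP3, MMP1, MMP3 and MMP10, leave a difference among such low signals undetectable here. None of these genes reached the testing level on every zebularine array, as PLAT did.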
